A study of Mus musculus with 6 samples.

Results

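The G2/M and mitotic spindle genes are 45 mouse genes whose products carry cells from the end of DNA replication through mitosis and cytokinesis. They were taken by symbol from a table of 26384 gene entries, and all 45 had an entry. The values come from RNA-Seq of MLL-AF9 cells, which are bone marrow c-Kit+ progenitors transduced with the MLL-AF9 fusion oncogene and GFP and passaged serially through mice to raise their leukemogenicity. The FF-10501-01 group comprised 3 C57BL/6J mice given 2 oral doses of 160 mg/kg FF-10501-01 on consecutive days, and the vehicle group comprised 3 C57BL/6J mice given vehicle. Both groups carried the same transplanted MLL-AF9 cells, and GFP+ cells were sorted from the bone marrow for RNA. This was 48 h after the first dose by the deposited labels and by the published methods of drug treatment. The published RNA-Seq methods state a shorter interval after a treatment. FF-10501-01 is an inhibitor of IMPDH, which makes the committed step toward guanine nucleotides, and the comparison asked how drug treatment in the mouse altered transcripts of the leukemia cells. The mice were young adults by the published methods.

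After FF-10501-01 treatment, transcripts of the G2/M and spindle genes stayed close to their level in vehicle-treated cells. Tpx2 and Hmmr, both microtubule-binding factors of spindle assembly, rose by 1.17-fold and 1.14-fold, and 0 of the 45 genes fell. These 2 genes are 4.44% of the list, where 14.9% of all entries tested passed in either direction. Each call was lost in some fits with 1 library left out. The other 43 did not pass the test, and all 45 fitted log2 fold changes lay between -0.19 for Cdc25c and 0.28 for Cdc25b. Of the 45 genes, 35 (77.8%) had a log2 fold change above 0, against 46.6% of all entries.

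Passage into mitosis depends on Cdk1 bound to A- and B-type cyclins, which is held inactive by phosphorylation and released by Cdc25 phosphatases. Aurora and Polo-like kinases, kinesins and microtubule-associated proteins then build the spindle, and the spindle checkpoint restrains the anaphase-promoting complex until kinetochores are attached. Most of these genes are transcribed late in the cell cycle, under the B-MYB-MuvB complex and FOXM1, through a promoter element called the cell cycle genes homology region (CHR) that often stands beside CCAAT boxes bound by NF-Y. In proliferating blood progenitors and leukemia cells their transcripts are widely used as a measure of how many cells are in G2 and mitosis. In bulk RNA such as this, fewer cells in a stage and less RNA per cell cannot be told apart. After the same dosing, the paper measured the share of MLL-AF9 cells in S, G2 or M phase by flow cytometry. It reported no cell cycle arrest.

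The promoters show what these genes share outside the expression table. RefSeq promoters (GRCm38.p6, 250 bases before to 50 bases after each start site) were found for 37 of the 45 genes, giving 40 promoters, and were not matched for Ccna2, Cdc25c, Aurkb, Smc4, Kif20a, Foxm1, Tpx2 and Incenp. The stretches below run 5′ to 3′ on the gene strand from 120 bases before to 20 bases after the start site, and capitals mark a CHR match (TTTGAA or TTCGAA) or a CCAAT match on either strand, so that TTCAAA and ATTGG are matches of the opposite strand. They are shown because, among genes with a single matched promoter, Cdc25b, Mki67, Ube2c and Hmmr had the highest fitted differences and Ccnb1 had the lowest. The regions are chr2:131186828-131186967 (plus strand) for Cdc25b, chr7:135716360-135716499 (minus strand) for Mki67, chr2:164769809-164769948 (plus strand) for Ube2c, chr11:40733418-40733557 (minus strand) for Hmmr and chr13:100786467-100786606 (minus strand) for Ccnb1.
Cdc25b: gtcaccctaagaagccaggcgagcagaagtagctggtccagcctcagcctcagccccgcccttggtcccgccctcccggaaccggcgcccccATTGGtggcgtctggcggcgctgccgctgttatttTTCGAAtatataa
Mki67: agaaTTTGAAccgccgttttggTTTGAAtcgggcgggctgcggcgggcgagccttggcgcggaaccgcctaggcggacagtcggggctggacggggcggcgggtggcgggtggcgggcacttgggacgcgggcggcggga
Ube2c: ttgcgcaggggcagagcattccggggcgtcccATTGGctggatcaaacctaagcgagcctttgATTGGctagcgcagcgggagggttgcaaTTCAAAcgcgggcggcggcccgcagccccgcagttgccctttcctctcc
Hmmr: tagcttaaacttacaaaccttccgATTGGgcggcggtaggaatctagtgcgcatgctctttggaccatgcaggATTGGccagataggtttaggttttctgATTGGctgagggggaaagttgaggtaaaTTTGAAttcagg
Ccnb1: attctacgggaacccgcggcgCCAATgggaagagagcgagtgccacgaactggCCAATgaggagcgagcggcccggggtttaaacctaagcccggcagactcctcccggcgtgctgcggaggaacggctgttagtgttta
In these stretches Cdc25b, Ube2c and Hmmr held 1 CHR match each, Mki67 held 2, and Ccnb1 held 0. CCAAT matches numbered 3 for Hmmr, 2 for Ube2c, 2 for Ccnb1, 1 for Cdc25b and 0 for Mki67, whose 3 CCAAT matches lay farther upstream in the longer window.

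Over the whole 300-base window, 33 of the 40 promoters (82.5%) held a CHR match, against 19.2% of all 32851 promoters of the same length and 14.1% of those of genes tested here. CCAAT stood in 32 of the 40 promoters (80.0%), against 37.4% of all promoters. Both motifs together stood in 30 of the 40 (75.0%), against 7.52% of all. Among the S phase genes listed for comparison, 9 of 42 promoters (21.4%) held a CHR match, 25 (59.5%) held a CCAAT match and 5 (11.9%) held both. Among the mitotic genes listed outside the 45, 50 of 131 promoters (38.2%) held a CHR match, 72 (55.0%) a CCAAT match and 30 (22.9%) both. Of 45 CHR matches, 30 began between 60 bases before and 50 bases after the start site. Counted on the gene strand were 35, but TTCGAA reads the same on both strands and all its matches were counted there. Of 68 CCAAT matches, 47 began within the 120 bases before the start site. Bub3, Ect2 and Prc1 had overlapping promoter windows, and sites shared by such windows were counted in each. The 7 genes with a matched promoter and no CHR match in it were Birc5, Ccnb1, Cenpe, Mad2l1, Ncaph, Nusap1 and Pttg1. Their median log2 fold change was 0.06, against 0.04 for the 30 genes with a match.

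**Figure D1:**
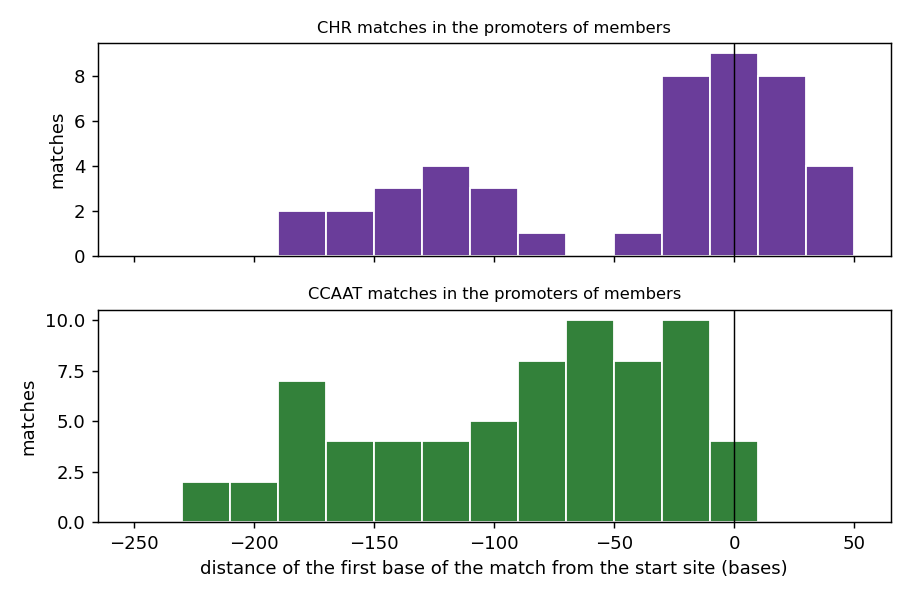
Number of CHR matches (upper panel) and CCAAT matches (lower panel) in the 40 promoters, by the distance in bases of the first base of the match from the start site (vertical line at 0). CHR matches gather around the start site, with 30 of 45 between -60 and +50, and CCAAT matches lie mostly before it, with 47 of 68 between -120 and -1. Sites shared by the overlapping windows of Bub3, Ect2 and Prc1 are counted in each window.

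Expression is given in FPKM, the fragments counted per kilobase of a transcript relative to all mapped fragments. FPKM summed to 531092 to 551958 per library. Read totals are not in the table, and the depth relative to vehicle replicate 1, estimated from small whole ratios between entries at or below 0.3 FPKM, was 0.987 to 1.11 in the FF-10501-01 libraries and up to 1.25 in vehicle replicate 3. Replicate numbers follow the table's columns and are not tied to a mouse. All 7 leukemia cell check genes were expressed in every library, Mpo, Elane, Hoxa9 and Meis1 among them. Of the 7, 3 passed, where 14.9% of all entries tested did. Itgam, a myeloid integrin, was higher, at 213.5 ± 9.83 FPKM in FF-10501-01-treated cells and 169 ± 2.62 FPKM in vehicle-treated cells (SD, n = 3 each, limma adjusted p = 0.00847), as was Hoxa9 in an entry merged with Mir196b, at 245.9 ± 8.02 FPKM in FF-10501-01-treated cells and 205 ± 23.4 FPKM in vehicle-treated cells (SD, n = 3 each, limma adjusted p = 0.0465). Kit was lower, at 35.5 ± 3.90 FPKM in FF-10501-01-treated cells and 42.7 ± 1.04 FPKM in vehicle-treated cells (SD, n = 3 each, limma adjusted p = 0.0476). The paper, which tested with Cuffdiff, reported that treatment left HoxA9 and Meis1 unaffected. The Hoxa9 and Kit calls here lie close to the threshold, and their dependence on single libraries was not examined. Of 10 late neutrophil granule genes, 8 were tested and 6 were higher, where 7.43% of all entries tested were. The summed level of the 10 was 989 to 1990 FPKM in FF-10501-01-treated cells, highest in replicate 3, and 574 to 635 FPKM in vehicle-treated cells. Of the 10, 0 were at 0 in all libraries. The 7 T and NK cell genes were below 1 FPKM throughout, as were 4 of 5 B cell genes (Pax5 at 0), 7 of 8 erythroid genes (Slc4a1 at 0), 4 of 7 megakaryocyte and platelet genes and 3 of 5 stromal and endothelial genes. The summed erythroid level was 0.273 to 3.65 FPKM in FF-10501-01-treated cells and 2.24 to 8.45 FPKM in vehicle-treated cells, and the summed platelet level, mostly the merged entry of Gp1bb, was 15.4 to 24.0 FPKM in FF-10501-01-treated cells and 9.50 to 10.5 FPKM in vehicle-treated cells. The part of these differences in the values of the G2/M and spindle genes was not tested.

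All 45 genes were well above the filter of a mean of 1 FPKM, with means between 9.58 FPKM for Cdc25c and 162 FPKM for Smc4. Their median level of 46.5 FPKM compares with 15.7 FPKM over the 11004 entries tested. The groups were compared with limma on log2(FPKM + 1), with p adjusted over all entries tested (Benjamini-Hochberg) and an adjusted p under 0.05 counted as passed. Of all entries, 14.9% passed, 7.43% higher and 7.46% lower, while 2 of the 45 genes (4.44%) passed, both higher. At an unadjusted p under 0.05 the genes numbered 14 (31.1%), against 32.8% of all entries in either direction. Of the 14 genes 13 were higher and 1 lower, and the share of all entries by direction was not computed at this threshold. On the TPM scale, where 60.2% of all calls were higher, against 49.9% in FPKM, 6 of the 45 genes passed higher, Aurka, Ube2c, Nusap1 and Mki67 besides Tpx2 and Hmmr. That is 13.3% of them, against 9.16% of all entries higher on the same scale. In FPKM the share of these genes that passed was below that of the whole table after adjustment and near it before.

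Most of the fitted values lay above 0. The log2 fold change was above 0 for 77.8% of the 45 genes and for 46.6% of all entries, with medians of 0.05 and -0.01, and under the 3 other scalings 34 to 39 of the 45 were above 0. The libraries of both groups did not overlap for 16 genes (35.6%), against 38.8% of all entries. In 15 of them FF-10501-01-treated cells were higher (33.3%, against 17.6% of all entries), and in 1, Cdc25c, they were lower (2.22%, against 21.2% of all entries). These are descriptions of a list of co-regulated genes and not a test of it.

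The 95% intervals were narrow. For 28 of the 45 genes the whole interval lay within 0.25 of 0 on the log2 scale, as it did for 43% of all entries. For 44 genes it lay within 0.5 of 0, as for 85.5% of all entries, and the exception was Cdc25b, whose upper bound was 0.52. The lowest bound of any of these genes was -0.33, for Cdc25c. The spread between replicates was small, with a median residual SD of 0.07 on the log2 scale, against 0.08 over all entries.

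Libraries of the same group differed. FF-10501-01 replicate 2 was the highest of the 6 libraries for 23 genes and vehicle replicate 2 for 9, while vehicle replicate 3, the library of greatest relative depth, was the lowest for 30. Within the FF-10501-01 group, replicate 3, which had the highest neutrophil granule level, was the lowest for 25 genes. The summed FPKM of the 45 genes was 2385.3, 2486.1 and 2352.1 in FF-10501-01-treated cells (mean 2407.8 ± 69.8, SD, n = 3), against 2289.4, 2376.2 and 2182.1 in vehicle-treated cells (2282.6 ± 97.2, SD, n = 3). The groups overlapped, since FF-10501-01 replicate 3 was below vehicle replicate 2. Without vehicle replicate 3 the median log2 fold change was 0.02 and 28 genes were above 0. Without FF-10501-01 replicate 2 it was 0.04 and 29 genes were above 0. Without FF-10501-01 replicate 3 the median was 0.08 and 34 genes were above 0. The part of depth and of the neutrophil granule level in this order was not tested.

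**Figure D2:**
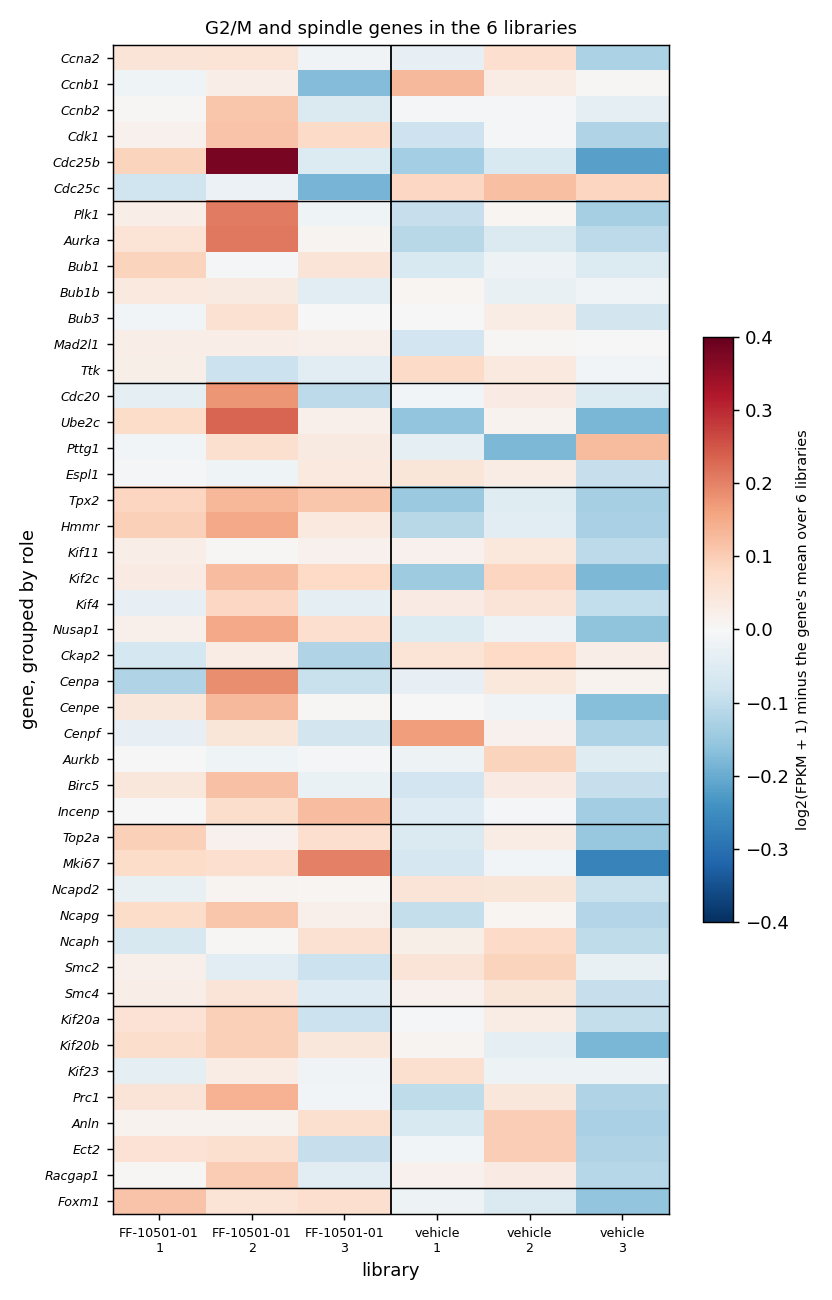
Each of the 45 genes (rows, grouped by role, with horizontal lines between roles) in the 6 libraries (columns, FF-10501-01 left of the vertical line and vehicle right of it), coloured by log2(FPKM + 1) minus the mean of that gene over the libraries. FF-10501-01 replicate 2 is the reddest column, highest for 23 genes, and vehicle replicate 3 the bluest, lowest for 30.

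Kinesins and spindle assembly factors held both genes that passed and the highest median of the role groups with several genes, 0.16 over 7 genes. Tpx2, which activates Aurora A and nucleates spindle microtubules (chromosome 2, 152847964 to 152895321, plus strand, GRCm38), was at 62.2, 64.4 and 63.4 FPKM in FF-10501-01-treated cells, against 52.8, 56.6 and 53.3 FPKM in vehicle-treated cells. The groups were well apart, the lowest treated library standing above the highest vehicle library. Its log2 fold change was 0.22 (standard error, SE, 0.04, 95% interval 0.12 to 0.32, limma adjusted p = 0.0195). Hmmr, a hyaluronan receptor that also binds spindle microtubules (chromosome 11, 40701395 to 40733422, minus strand), was at 30.9, 32.1 and 29.6 FPKM in FF-10501-01-treated cells, against 26.6, 27.95 and 26.3 FPKM in vehicle-treated cells, again without overlap. Its log2 fold change was 0.19 (SE 0.05, 95% interval 0.07 to 0.30, limma adjusted p = 0.0405).

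Both calls were lost when some single libraries were left out. With 1 library left out and so fewer residual degrees of freedom, Tpx2 had a limma adjusted p of 0.0596 and 0.0688 without FF-10501-01 replicate 2 or 3 and of 0.063 and 0.0562 without vehicle replicate 1 or 3, and it passed without either of the others. Hmmr had a limma adjusted p of 0.0889, 0.126 and 0.0774 without FF-10501-01 replicate 1, 2 or 3, and of 0.112 and 0.107 without vehicle replicate 1 or 3. Hmmr also missed the threshold without the filter on low values (limma adjusted p = 0.0646) and without a variance trend (limma adjusted p = 0.0621). The fitted values in fits with a library left out lay between 0.20 and 0.25 for Tpx2 and between 0.16 and 0.22 for Hmmr.

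The other 5 genes of this group did not pass. Nusap1, which bundles spindle microtubules near chromatin, was higher without overlap between groups (log2 fold change 0.16, limma adjusted p = 0.0887). Kif2c, a microtubule-depolymerizing kinesin, had a log2 fold change of 0.16 with overlapping groups, as vehicle replicate 2 at 25.3 FPKM stood above FF-10501-01 replicate 1 at 24.4 FPKM. Kif11, the motor that pushes spindle poles apart, was at 49.5 ± 0.368 FPKM in FF-10501-01-treated cells and 48.5 ± 2.65 FPKM in vehicle-treated cells (SD, n = 3 each). Kif4, a chromosome-bound kinesin, had a log2 fold change of 0.01. Ckap2, a spindle-associated protein, had the only value below 0 in the group, -0.11 (95% interval -0.23 to 0.02).

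**Figure D3:**
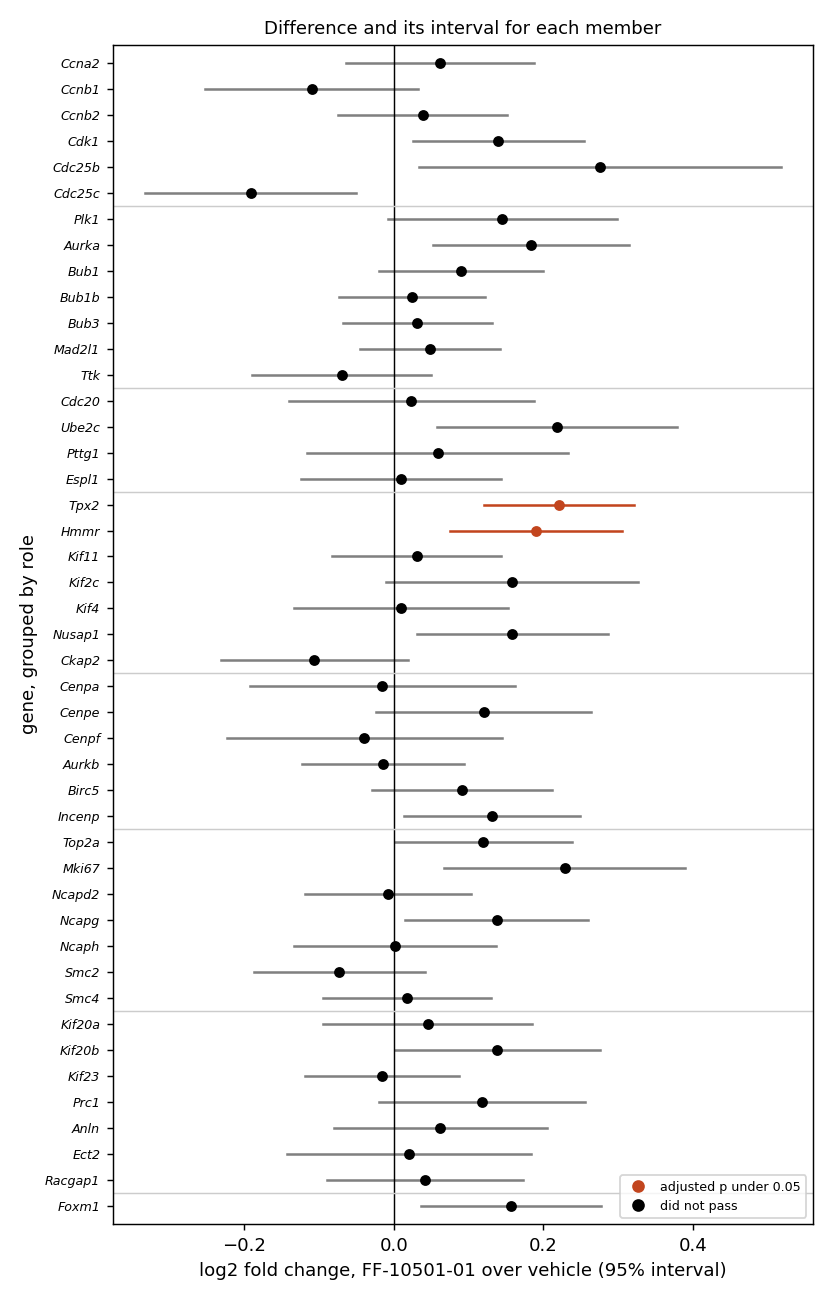
Fitted log2 fold change of each of the 45 genes, FF-10501-01 over vehicle (point), with its 95% interval from limma (line), in the same order by role. Tpx2 and Hmmr (orange) passed at an adjusted p under 0.05, and the other 43 (black) did not. Points run between -0.19 for Cdc25c and 0.28 for Cdc25b.

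Among the cyclins, Cdk1 and its phosphatases, 0 of 6 genes passed (3 at an unadjusted p under 0.05 in limma), and the median log2 fold change was 0.05. The 2 Cdc25 phosphatases, which activate Cdk1, stood at opposite ends of the whole list. Cdc25b, held to act first at the centrosome, was at 12.6, 15.6 and 11.3 FPKM in FF-10501-01-treated cells, against 10.6, 11.2 and 9.95 FPKM in vehicle-treated cells. Replicate 2 of the treated group stood far above the other libraries, and FF-10501-01 replicate 3 was only just above vehicle replicate 2 (log2 fold change 0.28, SE 0.11, limma adjusted p = 0.11). Cdc25c, which acts with Cdk1 in a positive feedback at mitotic entry, was at 8.99, 9.38 and 8.28 FPKM in FF-10501-01-treated cells, against 10.2, 10.5 and 10.2 FPKM in vehicle-treated cells. The treated libraries were all lower, with a log2 fold change of -0.19 (SE 0.06, limma adjusted p = 0.07).

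Cdk1 itself was at 35.9, 38.4 and 37.5 FPKM in FF-10501-01-treated cells, against 33.4, 35.3 and 32.5 FPKM in vehicle-treated cells. The groups did not overlap, and the difference did not pass (log2 fold change 0.14, limma adjusted p = 0.092). The entry of Ccnb2, a B-type cyclin, is merged with the neighbouring Rnf111, so its level cannot rank Ccnb2 itself. This merged entry was the highest of the group, at 105, 113 and 100.2 FPKM in FF-10501-01-treated cells, against 104, 104 and 101 FPKM in vehicle-treated cells. Its groups overlapped. Ccnb1, the main mitotic cyclin, was at 45.6, 46.9 and 40.7 FPKM in FF-10501-01-treated cells, against 50.5, 47.1 and 46.3 FPKM in vehicle-treated cells, a log2 fold change of -0.11 (95% interval -0.25 to 0.03). Ccna2, the cyclin of S phase and G2, was at 87.6, 87.8 and 83.7 FPKM in FF-10501-01-treated cells, against 82.6, 88.6 and 77.3 FPKM in vehicle-treated cells, and these overlapped.

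Of 7 mitotic kinases and spindle checkpoint genes, 0 passed (1 unadjusted), and 6 had a log2 fold change above 0. Aurka, the Aurora kinase of centrosomes and spindle poles that Tpx2 activates, was at 61.0, 68.2 and 59.2 FPKM in FF-10501-01-treated cells, against 54.3, 56.4 and 54.5 FPKM in vehicle-treated cells. The groups did not overlap (log2 fold change 0.18, SE 0.06, limma adjusted p = 0.0642), and FF-10501-01 replicate 2 was the highest by a wide margin. Plk1, the Polo-like kinase of mitotic entry, showed the same high replicate, with 54.9, 62.3 and 53.2 FPKM in FF-10501-01-treated cells, against 50.5, 54.1 and 49.0 FPKM in vehicle-treated cells, and its groups overlapped. Bub3, the most abundant of the checkpoint transcripts, was at 97.2, 102 and 98.0 FPKM in FF-10501-01-treated cells, against 97.9, 100.1 and 93.0 FPKM in vehicle-treated cells. The checkpoint kinase Bub1 and the Cdc20-binding inhibitor Mad2l1 were higher without overlap, with log2 fold changes of 0.09 and 0.05. Bub1b, which encodes the inhibitor BubR1, and Ttk, the kinase that starts checkpoint signalling, overlapped, at 0.02 and -0.07.

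Genes of the anaphase-promoting complex, securin and separase numbered 4, of which 0 passed (1 unadjusted). Ube2c, the ubiquitin-conjugating enzyme of the complex, was at 137, 153 and 132 FPKM in FF-10501-01-treated cells, against 117, 132 and 115 FPKM in vehicle-treated cells. The lowest treated library barely cleared the highest vehicle library, at 132.3 and 131.7 FPKM (log2 fold change 0.22, SE 0.07, limma adjusted p = 0.0689). Cdc20, the mitotic coactivator of the complex, had a log2 fold change of 0.02 and ranged widely in the treated group, with 59.7 FPKM in replicate 2 and 48.9 FPKM in replicate 3. Securin (Pttg1) and separase (Espl1), the inhibitor and the protease that together time the cleavage of cohesin, had log2 fold changes of 0.06 and 0.01 with overlapping groups.

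Centromere and chromosomal passenger genes gave 0 of 6 that passed (1 unadjusted). Incenp, the scaffold of the passenger complex, was at 70.6, 74.2 and 77.0 FPKM in FF-10501-01-treated cells, against 68.0, 70.3 and 64.0 FPKM in vehicle-treated cells, with no overlap (log2 fold change 0.13, SE 0.05, limma adjusted p = 0.116). Birc5, which encodes survivin and was the most abundant of the group, was at 109, 114 and 103 FPKM in FF-10501-01-treated cells, against 99.9, 108 and 98.8 FPKM in vehicle-treated cells, and overlapped. Aurkb, the kinase of the same complex, was level, at 55.4, 54.6 and 55.1 FPKM in FF-10501-01-treated cells, against 54.5, 58.9 and 53.5 FPKM in vehicle-treated cells. Its log2 fold change was -0.01 with a 95% interval of -0.12 to 0.09. Cenpe, a kinetochore kinesin, was higher without overlap (0.12, limma adjusted p = 0.22), while the centromeric histone Cenpa and the kinetochore protein Cenpf had values of -0.02 and -0.04.

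Condensin and chromosome structure genes included the most abundant transcripts, and 0 of 7 passed (3 unadjusted). Mki67, which encodes the proliferation antigen that coats mitotic chromosomes, was at 121, 121 and 132 FPKM in FF-10501-01-treated cells, against 110, 114 and 95.5 FPKM in vehicle-treated cells. The groups did not overlap, and at a log2 fold change of 0.23 (SE 0.07, limma adjusted p = 0.0611) it was the gene nearest the threshold among those that did not pass. Top2a, the topoisomerase that untangles sister chromatids, averaged 148 ± 4.17 FPKM in FF-10501-01-treated cells and 136 ± 8.54 FPKM in vehicle-treated cells (SD, n = 3 each) and overlapped. Smc4, a core condensin ATPase, was the most abundant of all 45 genes, at 165, 168 and 156 FPKM in FF-10501-01-treated cells, against 164, 167 and 152 FPKM in vehicle-treated cells. Its partner Smc2 had a log2 fold change of -0.07, and both overlapped. The condensin I subunits had log2 fold changes of 0.14 for Ncapg (no overlap), 0.0019 for Ncaph and -0.01 for Ncapd2, and 0 of the 3 passed.

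Cytokinesis genes gave 0 of 7 that passed (1 unadjusted), and 6 had values above 0. Kif20b, a kinesin of the late midzone, was at 23.7, 24.1 and 23.3 FPKM in FF-10501-01-treated cells, against 22.7, 22.0 and 19.7 FPKM in vehicle-treated cells, with no overlap (log2 fold change 0.14, SE 0.06, limma adjusted p = 0.149). Racgap1, the GTPase-activating subunit of centralspindlin and the most abundant of the group, was at 56.5, 60.4 and 54.6 FPKM in FF-10501-01-treated cells, against 57.0, 57.6 and 51.9 FPKM in vehicle-treated cells. These overlapped, as did Kif23, its kinesin partner, at a log2 fold change of -0.02. The midzone bundler Prc1, the ring scaffold Anln, the RhoA activator Ect2 and the kinesin Kif20a had values of 0.12, 0.06, 0.02 and 0.05, each with overlapping groups.

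Foxm1, the transcription factor that drives many of these genes, shares its entry with the neighbouring 4933413G19Rik. The merged entry was at 25.1, 24.0 and 24.2 FPKM in FF-10501-01-treated cells, against 22.8, 22.1 and 20.6 FPKM in vehicle-treated cells. The groups did not overlap, and the difference did not pass (log2 fold change 0.16, SE 0.05, limma adjusted p = 0.0784). How much of it belongs to Foxm1 cannot be read from a merged value.

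**Figure D4:**
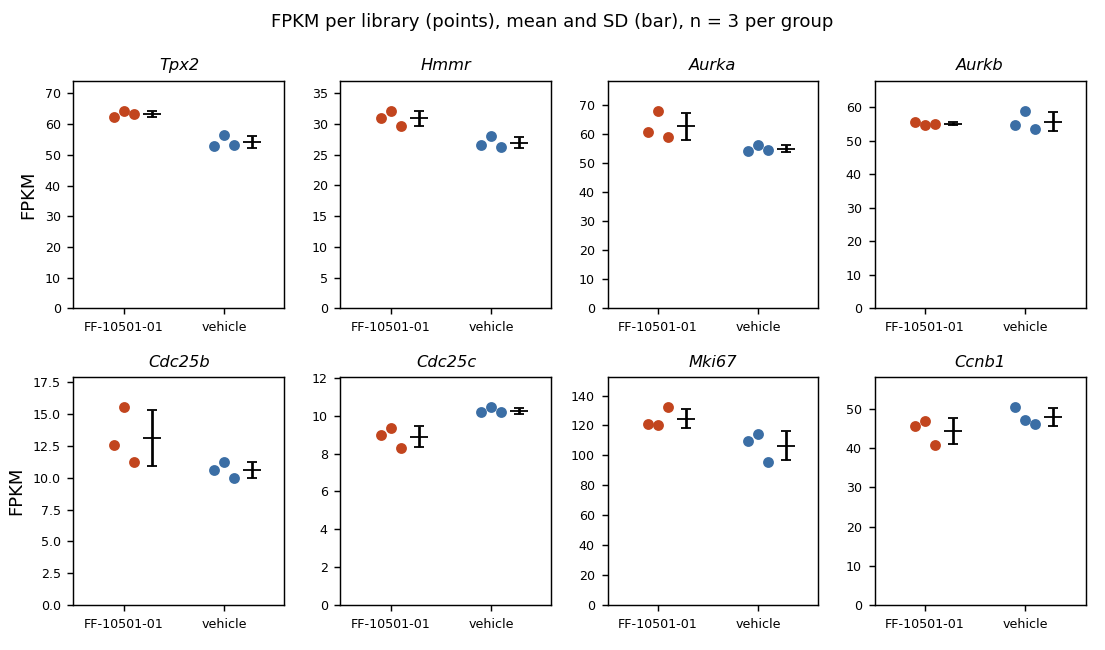
FPKM of 8 genes in each library (points, FF-10501-01 left and vehicle right), with the mean and SD of each group (bar, n = 3), on axes that start at 0. Tpx2 and Hmmr passed the test, Cdc25b and Mki67 lie higher and Cdc25c lower without overlap but did not pass, Aurka lies higher without overlap while Aurkb is level, and Ccnb1 overlaps.

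Pairs of related genes were set against each other within each library, which removes scaling between libraries. These 4 ratios were chosen after the values had been seen, and with 3 libraries against 3 the exact two-sided permutation test cannot go below p = 0.1. The ratio of Cdc25b to Cdc25c was 1.4, 1.66 and 1.36 in FF-10501-01-treated cells, against 1.04, 1.07 and 0.977 in vehicle-treated cells (exact permutation p = 0.1, adjusted over the 4 ratios 0.2). The ratio of Aurka to Aurkb was 1.10, 1.25 and 1.07 in FF-10501-01-treated cells, against 0.995, 0.957 and 1.02 in vehicle-treated cells (exact permutation p = 0.1, adjusted 0.2). Neither ratio overlapped between groups, with differences of 0.51 and 0.20 on the log2 scale, and both reached only the smallest p that this design allows. For Cdc25b over Cdc25c that outcome was fixed beforehand, since Cdc25b was higher and Cdc25c lower without overlap. Its p therefore adds nothing to the values of the single genes, picked from the ends of the whole list. The adjustment over the 4 ratios does not cover that choice. The ratio of Ccna2 to Ccnb1 overlapped, at 1.95 ± 0.0946 in FF-10501-01-treated cells and 1.73 ± 0.133 in vehicle-treated cells (SD, n = 3 each, exact permutation p = 0.2, adjusted 0.267). The ratio of Tpx2 to its partner Aurka was 1.01 ± 0.064 in FF-10501-01-treated cells and 0.984 ± 0.0166 in vehicle-treated cells (SD, n = 3 each, exact permutation p = 0.6, adjusted 0.6).

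Other genes of mitosis, from lists outside the 45, passed in small numbers in both directions. Over these lists and those of the G1 and S phase machinery, 9 lists with 217 genes tested, 8 genes passed higher (3.69%, against 7.43% of all entries) and 12 lower (5.53%, against 7.46%). Of 37 other kinetochore and centromere genes 1 rose, Mis12, a subunit of the kinetochore bridge to microtubules, with 20.5 ± 0.759 FPKM in FF-10501-01-treated cells and 17.2 ± 1.27 FPKM in vehicle-treated cells (SD, n = 3 each, limma adjusted p = 0.0386). Of 26 other spindle and cytokinesis genes 1 rose, Gtse1, a microtubule-associated protein of G2 (log2 fold change 0.26, limma adjusted p = 0.046), and of 18 genes of mitotic entry and exit 1 rose, Ccnf, the F-box cyclin, in an entry merged with Mir5134 (0.24, limma adjusted p = 0.0207). In 17 cohesin and condensin II genes 0 rose (2 were higher at an unadjusted p under 0.05 in limma) and 2 fell. Pds5a, a regulator of cohesin on chromatin, fell to 77.7 ± 7.94 FPKM in FF-10501-01-treated cells, against 106 ± 8.36 FPKM in vehicle-treated cells (SD, n = 3 each, log2 fold change -0.44, limma adjusted p = 0.0169). Nipbl, the cohesin loader, had a log2 fold change of -0.31 (limma adjusted p = 0.0435). The kinetochore count of 1 became 0 without a filter, without a variance trend and without FF-10501-01 replicate 1, 2 or 3 or vehicle replicate 1. The count for spindle and cytokinesis became 0 in those settings, without vehicle replicate 3 and with the replicate number as a block. The count for mitotic entry and exit became 0 without FF-10501-01 replicate 2 or 3 or vehicle replicate 1. The cohesin count of 2 became 0 without a filter, FF-10501-01 replicate 3 or vehicle replicate 1, and 1 without a trend, on the TPM scale and without any of the other 4 libraries.

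Among 16 anaphase-promoting complex genes, Anapc13 rose (log2 fold change 0.20, limma adjusted p = 0.027) and Anapc16 fell (-0.39, limma adjusted p = 0.0167). Among 26 centrosome and centriole genes, Cenpj, a centriole elongation factor, rose (0.28, limma adjusted p = 0.0241). Within the augmin complex, which branches spindle microtubules, Haus8 rose (0.24, limma adjusted p = 0.0243) while Haus4 fell (-0.19, limma adjusted p = 0.0381), and Haus1, another subunit, fell as well. The list medians were 0.01 for other kinetochore genes, 0.075 for other spindle and cytokinesis genes, -0.02 for mitotic entry and exit and -0.06 for cohesin and condensin II. Both counts of 1 in the anaphase-promoting complex became 0 without FF-10501-01 replicate 3 or vehicle replicate 1, and the count higher was also 0 without a filter, without a trend and without FF-10501-01 replicate 2 or vehicle replicate 2. Both centrosome counts of 2 became 0 without a filter, FF-10501-01 replicate 3 or vehicle replicate 1. The count higher was also 0 without FF-10501-01 replicate 2. The count lower was also 0 without a trend, FF-10501-01 replicate 1 or vehicle replicate 3, and with the replicate number as a block. Without single libraries the count higher over the 9 lists ran between 1 (without FF-10501-01 replicate 2 or 3, or vehicle replicate 1) and 12 (without vehicle replicate 2). The count lower ran between 0 (without FF-10501-01 replicate 3 or vehicle replicate 1) and 11 (without vehicle replicate 2), and it was 3 without any of the other 3 libraries.

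Genes of DNA replication had a median log2 fold change of -0.05, against 0.05 for the G2/M genes, and the difference between the lists was not tested. Of 45 S phase genes 0 rose in limma (0 also at an unadjusted p under 0.05) and 5 fell (11.1%, against 7.46% of all entries), namely Mcm7, Mcm3, Cdt1, Pole and Clspn. A log2 fold change above 0 was found for 12 of them, where 35 of the 45 G2/M genes had one. Under the 3 other scalings 11 to 15 of the S phase genes were above 0, and 2 passed lower on the TPM scale and 3 with median of ratios scaling. The count lower was 1 without a filter on low values or with the replicate number as a block, and 0 without a variance trend. Mcm7, a subunit of the replicative helicase, was at 154, 150.1 and 157 FPKM in FF-10501-01-treated cells, against 175, 168 and 174 FPKM in vehicle-treated cells (log2 fold change -0.17, limma adjusted p = 0.027). Cdt1, which loads that helicase, fell to 48.8 ± 1.56 FPKM in FF-10501-01-treated cells, against 56.0 ± 1.81 FPKM in vehicle-treated cells, and Pole, the leading-strand polymerase, fell to 16.4 ± 0.585 FPKM, against 19.2 ± 0.986 FPKM in vehicle-treated cells (SD, n = 3 each). Without single libraries the count of S phase genes that fell was 0, except for 3 without vehicle replicate 2. The summed FPKM of the 45 G2/M genes over that of the S phase genes was 0.842, 0.869 and 0.790 in FF-10501-01-treated cells, against 0.777, 0.786 and 0.724 in vehicle-treated cells. These ratios did not overlap, though FF-10501-01 replicate 3 and vehicle replicate 2 were close, and no test was made of sums over chosen genes.

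**Figure D5:**
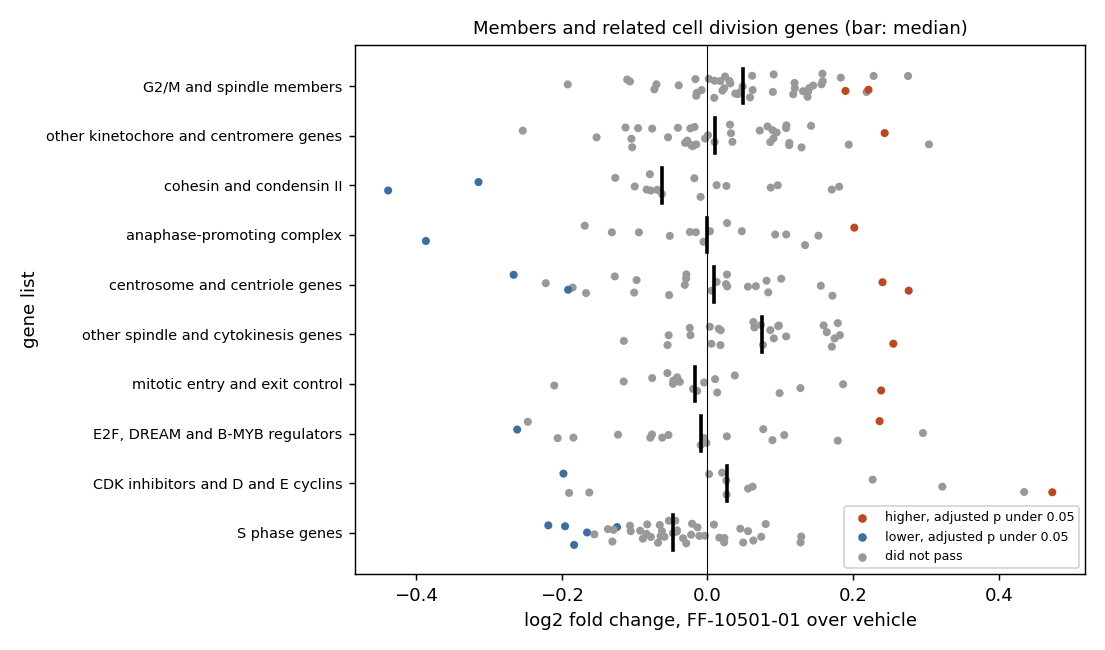
Fitted log2 fold change, FF-10501-01 over vehicle, of the 45 G2/M and spindle genes (top row) and of 9 related lists (rows below). Each point is a gene, orange where it passed higher, blue where it passed lower and grey where it did not pass, and the bar is the median of the list. The median is 0.05 for the G2/M genes and -0.05 for the S phase genes.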

How the data were processed

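RNA-Seq libraries of GFP+ MLL-AF9 cells from 3 FF-10501-01-treated and 3 vehicle-treated mice were used. Per the labels and the published methods, the authors used cutadapt 1.8.1 for trimming, TopHat2 2.1.1 for alignment to GRCm38 and Cufflinks 2.2.1 for FPKM per gene, from strand-specific libraries, and tested with Cuffdiff, which needs the reads. The deposited FPKM table holds 26384 entries, of which 394 are merged genes and 9091 are at 0 throughout. FPKM carry no read totals, so no counting interval was computed. Relative depth was the most frequent ratio of entries at or below 0.3 FPKM to vehicle replicate 1, around which 70.0% to 71.9% of values in the other 5 libraries lay at small whole ratios (within 0.01 on the log2 scale).

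The analysis used log2(FPKM + 1) of the 11004 entries with a mean of at least 1 FPKM, which understates fold changes of low genes. Both groups were fitted in R 4.3.3 with limma 3.58.1 (eBayes with trend, two-sided, Benjamini-Hochberg over all entries, threshold 0.05), and the code was tested on simulated data. Table columns name the group but not which mouse, and same-numbered libraries did not deviate together. Members and lists were chosen with earlier results of these data known. Library values are given for members that passed and, in each role group, for the most abundant member and that of smallest p. From the related lists, up to 3 genes per list that passed are given. Values of Cdc25b, Cdk1, Ccnb1, Ccna2, Plk1 and Aurkb in each library, other members described without them and the ratios were added after values were seen. Some marker genes are not reported here. Promoters came from RefSeq (GRCm38.p6) and gene positions from GENCODE (GRCm38). The alternatives tried comprised 3 scalings, filters of 0 and 5 FPKM, a pseudocount of 0.1, eBayes without trend, a replicate block and each library omitted once. Figures used Python 3.11.15, pandas 2.3.3 and matplotlib 3.10.9.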

Additional observations from a re-analysis of the deposited data

How the results depend on the processing

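The median log2 fold change of the 45 genes was above 0 under every alternative run (0.02 to 0.08), and 0 of the 45 passed lower in any. The number that passed higher was 2 and became 1 without a filter (Tpx2) or without a variance trend (Tpx2), 4 with median of ratios scaling (Aurka and Mki67 added) or quantile normalization (Ube2c and Mki67 added), and 6 on the TPM scale (Aurka, Ube2c, Nusap1 and Mki67 added). It ran between 0 and 5 with single libraries left out. Hmmr had a limma adjusted p of 0.0646 without a filter and 0.0621 without a trend. Over all entries, 818 passed higher and 821 lower, against 337 and 244 without a filter, and 512 lower without a trend. Leaving out single libraries gave 147 to 884 higher and 71 to 789 lower. On the TPM scale 60.2% of calls were higher, against 49.9%. The related lists (8 higher, 12 lower) gave 2 and 2 without a filter, 13 and 7 on the TPM scale and 5 and 3 without a trend, and with single libraries left out 1 to 12 higher and 0 to 11 lower. The replicate numbers are shared by both groups, but same-numbered libraries did not deviate together (correlations -0.011, -0.074 and -0.036). With the replicate number as a block, 3 of the 45 genes passed higher (Ube2c added, limma adjusted p = 0.0278) and 4 related genes passed lower, of which 1 was an S phase gene, while 0 spindle and cytokinesis genes passed higher and 0 E2F, DREAM and B-MYB regulators passed.

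Signs turned only for genes near 0 that did not pass. Ncapd2 was 0.0045 with median of ratios scaling and 0.0097 on the TPM scale, where Cenpa was 0.0023, Aurkb 0.0031 and Kif23 0.0010, and Ncaph was -0.0044 with quantile normalization. With single libraries left out the log2 fold change ran between -0.1118 and 0.0406 for Cenpa, -0.0548 and 0.0166 for Ncapd2, -0.0338 and 0.0749 for Ect2, -0.0082 and 0.0772 for Ccnb2, -0.0596 and 0.081 for Cdc20, -0.0367 and 0.0368 for Kif4, -0.0486 and 0.0408 for Ncaph, -0.0238 and 0.0475 for Smc4, -0.0341 and 0.0368 for Espl1, -0.1111 and 0.0339 for Cenpf, -0.0353 and 0.0115 for Kif23, -0.016 and 0.1369 for Pttg1, -0.0417 and 0.0265 for Aurkb, -0.0143 and 0.0593 for Kif11, and -0.0053 and 0.0737 for Racgap1. The causes were not tested, beyond the fewer samples in fits without a library. Without read totals the counting error of single values is unknown.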

Other observations

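Of 19 E2F, DREAM and B-MYB regulators 1 rose and 1 fell (5.26% each, against 7.43% and 7.46% of all entries). E2f2 was at 17.5, 16.5 and 18.1 FPKM in FF-10501-01-treated cells, against 13.9, 15.3 and 14.6 FPKM in vehicle-treated cells (log2 fold change 0.24, limma adjusted p = 0.0326). E2f3, of the same family of activating factors, was at 5.04, 4.61 and 4.73 FPKM in FF-10501-01-treated cells, against 6.18, 5.60 and 6.05 FPKM in vehicle-treated cells (-0.26, limma adjusted p = 0.0414). Among 13 tested CDK inhibitors and D- and E-type cyclin genes, 1 rose and 1 fell (7.69% each, against the same shares of all entries). Ccnd3, the D-type cyclin, was at 135, 135 and 159 FPKM in FF-10501-01-treated cells, against 98.4, 106 and 102 FPKM in vehicle-treated cells (log2 fold change 0.47, SE 0.07, limma adjusted p = 0.00997). Its kinase partner Cdk4 fell to 175 ± 6.80 FPKM in FF-10501-01-treated cells, against 201 ± 6.33 FPKM in vehicle-treated cells (SD, n = 3 each, limma adjusted p = 0.0251). Without FF-10501-01 replicate 1, 2 or 3 or vehicle replicate 1, the count of E2F, DREAM and B-MYB regulators that passed was 0 in both directions. The same held without a filter on low values and with the replicate number as a block. Without a filter, without a variance trend, or without FF-10501-01 replicate 2 or 3 or vehicle replicate 1 or 3, the count of CDK inhibitors and cyclin genes that passed lower was 0. That count was also 0 with the replicate number as a block.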
